A study of Mus musculus with 6 samples.

Results

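The comparison described here is between 2 of 6 RNA-seq libraries: sorted epithelial cells of the embryonic mouse dorsal pancreatic bud at E14.5, 1 pool from Pbx mutant embryos and 1 pool from mTmG control embryos, chosen by their labels. The other 4 libraries are epithelium and mesenchyme of both genotypes at E12.5. Both genotypes carry mTmG, a reporter that makes cells red with Tomato and, after Cre has acted, green with GFP, and both colours were sorted. The genotype given for the mutant includes mTmG+/-, Nkx2.5-Cre+/- and Pbx2+/-; this is not all of it, so the embryos are not to be read as Pbx2 heterozygotes alone. That of the control is mTmG alone, and where its green cells came from is not stated. Cre from Nkx2-5 is known for activity in the mesenchyme around the dorsal pancreas, so the epithelium is not the tissue in which that Cre is known to act. Sorted fractions were frozen and later combined for RNA isolation, from a number of embryos that the labels leave out.

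At this stage of mouse development the branching pancreatic epithelium divides its work. Tip cells become acinar cells, which make digestive enzymes under the transcription factors Ptf1a and Rbpjl. Trunk cells keep Sox9 and give rise to ducts and, through short expression of Neurog3, to endocrine cells that make hormones. The mesenchyme around the epithelium supplies growth factors and is marked by Hox, Fox, Tbx and Nkx genes of the gut wall.

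The 2 libraries held 15513358 counts on genes in the control and 14032569 in the library labelled mutant. Levels are CPM, counts scaled to a common library size, and pairs of levels are given in the order control, then library labelled mutant, with 1 library each and so no replicate error. The bracket after a fold holds its 95% interval, which covers counting error only. Of 24062 genes in the tables, 12145 had 5 CPM or more in either library and are called measured. Cyp4b1, just above 5 CPM in the control and at 1.01 CPM in the other library, was just inside that limit, and Bean1, at 0.616 and 4.96 CPM, just outside. A call needed a ratio of 2-fold or more and an interval without 1. A gene that reached 5 CPM in only 1 of the libraries could be called only in the direction of that library. By this rule 1171 genes (9.64%) were called higher in the library labelled mutant and 777 (6.4%) lower, and every count below is read against those shares. The median log2 ratio of all measured genes was -0.03. Among genes at 100 CPM or more the log2 ratios had a standard deviation of 0.49 where counting error alone gives 0.04, and the same value between the E12.5 epithelial libraries was 0.24. With 1 pool a side, differences between pools and differences between genotypes cannot be told apart, so sizes are described and no test was made.

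Both libraries held the markers of epithelium that their labels name, and both also held mesenchymal RNA. The 30 general epithelial genes summed to 9141 and 5088 CPM at E14.5 and the 32 general mesenchymal genes to 9106 and 17239 CPM. For scale, the E12.5 mesenchyme libraries (control, then labelled mutant) held 283 and 231 CPM of the epithelial genes and 15835 and 14239 CPM of the mesenchymal genes. The library labelled mutant therefore had less of the first and more of the second than its control, at both levels by less than 2-fold. In bulk RNA fewer cells of a type and less RNA per cell cannot be told apart. To set pancreatic genes against genes that all epithelial cells share, list medians, and the ratios of some genes, are also given after subtracting the median of the general epithelial genes, -0.94 (1.92-fold lower); this is called the relative scale. On it 5238 genes (43.1%) were called higher and 153 (1.26%) lower, since the shift moves every gene up.

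**Figure D1:**
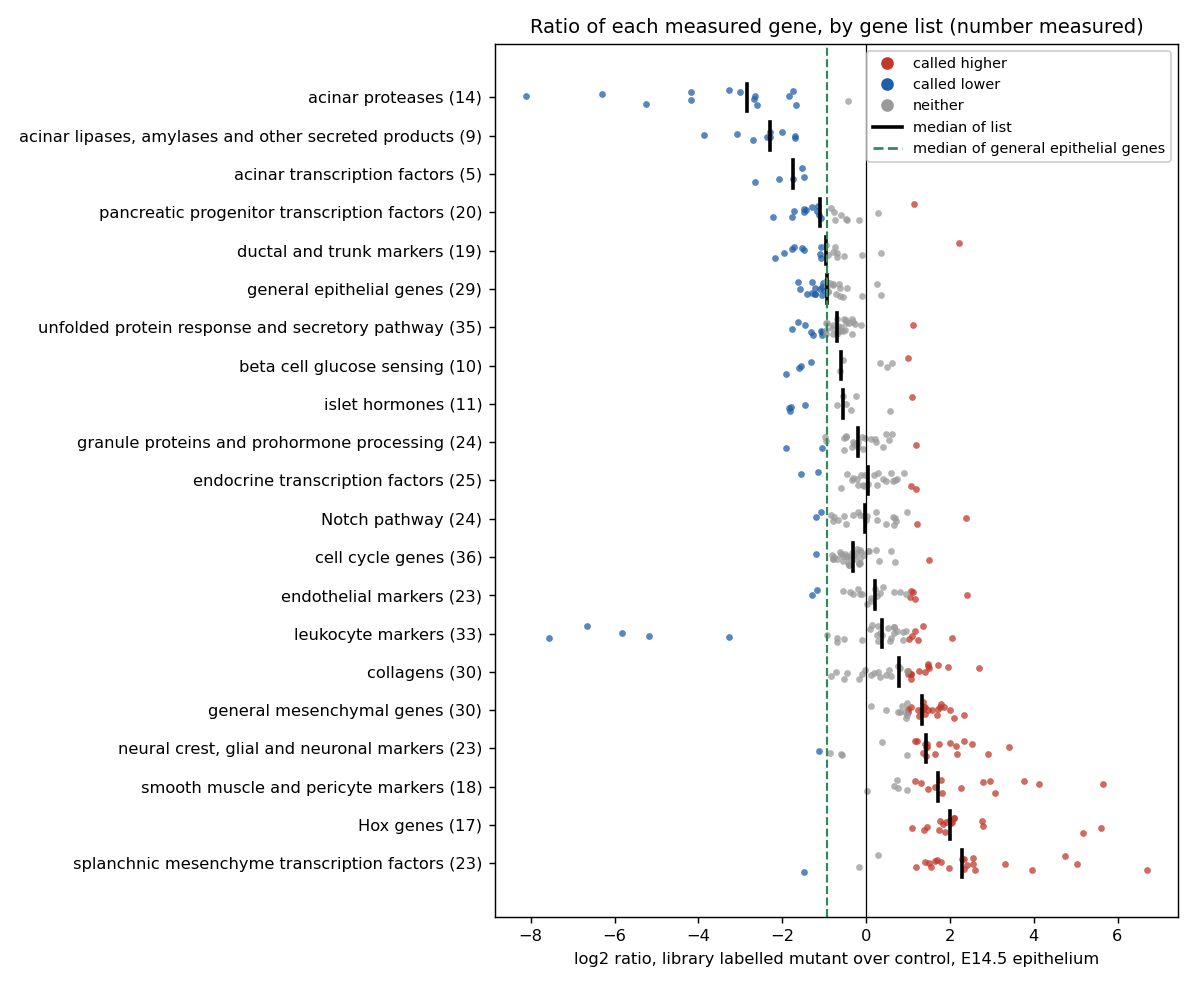
Each point is 1 measured gene, placed by its log2 ratio of the library labelled mutant over control in E14.5 epithelium (x axis) and by gene list (y axis, number measured in brackets); colours mark the call, black bars the median of the list and the dashed line the median of the general epithelial genes at -0.94. The medians of the acinar lists lie left of that line (-2.84 for the proteases, with Ctsc to its right at -0.44). The endocrine transcription factors lie around 0 and the Hox and splanchnic lists to the right (medians 2.01 and 2.28).

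The targeted family was examined first. Pbx2, a TALE homeodomain protein that binds DNA with Hox and Meis partners, stood at 34.0 and 47.3 CPM in E14.5 epithelium, 1.39-fold higher (1.24 to 1.56). At E12.5 it stood at 54.5 and 49.7 CPM in epithelium and 89.9 and 56.0 CPM in mesenchyme. The E14.5 level was thus not below the control, although the label names the loss of a copy, and the ratio was under the 2-fold line. In the E12.5 controls Pbx2 was higher in mesenchyme than in epithelium. How far mesenchymal RNA enters the E14.5 ratio was not tested. The level does not settle the genotype, so the sample is called the library labelled mutant throughout and every direction rests on the label. Whole-gene counts can include a mutant copy that is still transcribed, and the part of Pbx2 that is mutated is not given in the labels. Pbx2 lies on chromosome 17 from 34591266 to 34597400, plus strand (mm10, GENCODE M21). Of the TALE genes, 2 of the 11 measured were called higher and 0 lower, the median log2 ratio being 0.15 (1.10 on the relative scale). The pair called higher were Meis3, a Pbx partner, at 23.02 and 51.1 CPM and the Iroquois gene Irx2 at 9.38 and 19.9 CPM. Meis1, at 115 and 223 CPM, missed the 2-fold line with a fold of 1.94, whereas Pbx3 stood at 45.7 and 45.1 CPM and Meis2 at 92.3 and 103 CPM. Nkx2-5 itself had no read in the control against 0.862 CPM, under the limit for measured genes, beside 41.2 and 66.8 CPM in E12.5 mesenchyme.

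General epithelial genes were lower together. Of the list, 0 of the 29 measured were called higher and 13 lower, the median log2 ratio being -0.94 (0.00 on the relative scale), and 27 of 29 lay below 0. Cdh1, the adhesion molecule E-cadherin, stood at 628 and 211 CPM, 2.98-fold lower (2.85 to 3.10), and Epcam at 938 and 467 CPM, 2.01-fold lower (1.95 to 2.07); the Epcam ratio drops under 2-fold with plain CPM, upper quartile or 2-library TMM scaling. The tight junction genes Cldn3 (430.4 and 176 CPM), Cldn7 (381 and 183 CPM) and Ocln (161 and 68.7 CPM) were called lower, as were the epithelial splicing regulators Esrp1 and Esrp2. A few members did not share this: the keratins Krt7 (346 and 322 CPM) and Krt19 (139 and 179 CPM) and the claudin Cldn4 (90.7 and 108 CPM). Krt8 and Krt18, the paired simple-epithelium keratins, stood at 1479 and 851 CPM and 755 and 403 CPM, near the median of the list. The same 29 genes had a median log2 genotype ratio of -0.16 at E12.5.

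Acinar genes showed the largest shortfall of any pancreatic list. The transcription factors of the acinar program were all called lower: 0 of the 5 measured were called higher and 5 lower, the median log2 ratio being -1.73 (-0.79 on the relative scale). Ptf1a, the bHLH factor of the PTF1 complex, stood at 189 and 56.8 CPM, 3.32-fold lower (3.07 to 3.60). Its partner Rbpjl, the form of RBPJ particular to acinar cells, stood at 317 and 50.8 CPM, 6.24-fold lower (5.76 to 6.76). Bhlha15 (Mist1), which organises the secretory apparatus, had 199 and 47.0 CPM, and the nuclear receptor Nr5a2 27.2 and 9.48 CPM. In the E12.5 pair the levels were 51.3 and 45.3 CPM for Ptf1a and 70.3 and 46.4 CPM for Rbpjl (control, then labelled mutant, for each), near the E14.5 library labelled mutant. The other 3 were not all near it: Bhlha15 was lower at E12.5 (7.58 and 5.06 CPM), Nr5a2 higher (23.4 and 16.4 CPM) and Gata4 at 74.1 and 57.3 CPM, beside 195 and 70.5 CPM at E14.5. In mm10, Ptf1a lies on chromosome 2 from 19445663 to 19447501, plus strand.

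The enzymes that these factors activate were further apart. Of the acinar proteases, 0 of the 14 measured were called higher and 13 lower, the median log2 ratio being -2.84 (-1.90 on the relative scale); Ctsc, a lysosomal protease with wide expression, was the member that was not called, at 136 and 100.3 CPM. Cpa1, carboxypeptidase A1 and an early tip marker, stood at 4464 and 1239 CPM, 3.60-fold lower (3.54 to 3.66). Ctrb1, a chymotrypsinogen, stood at 2845 and 472 CPM, 6.02-fold lower (5.87 to 6.18), and Cela1, an elastase, at 572 and 178 CPM, 3.21-fold lower (3.07 to 3.36). Several enzymes with fewer reads had larger folds: Cela2a had 83.9 and 4.67 CPM, 18.0-fold lower (14 to 23.4), and Cpb1, carboxypeptidase B1, 57.1 and 5.89 CPM, 9.69-fold lower (7.72 to 12.3). The trypsinogens Prss1 (45.4 and 0.575 CPM), Prss3 (11.0 and 0.287 CPM), Try5 (76.9 and 4.24 CPM) and Try10 (59.8 and 0.215 CPM) were lower too, but these near-identical genes can share reads and their single values are uncertain. Relative to the general epithelial genes, 10 of 14 proteases were still called lower, against 1.26% of all genes. Cela2a, Prss1, Prss3, Try5 and Try10 reached 5 CPM only in the control, so on either scale they could not have been called higher.

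Lipases and other secreted products were lower to a like degree: 0 of the 9 measured were called higher and 9 lower, the median log2 ratio being -2.30 (-1.36 on the relative scale). Pnliprp1, a lipase-related protein, stood at 7849.9 and 1594 CPM, 4.93-fold lower (4.86 to 4.997). Cel, the bile salt-activated lipase, stood at 1040.4 and 212 CPM, 4.91-fold lower (4.72 to 5.11), and Clps, the cofactor of pancreatic lipase, at 1166 and 288 CPM, 4.05-fold lower (3.91 to 4.19). Serpini2, a pancreatic serpin, had 327 and 38.5 CPM, 8.50-fold lower (7.77 to 9.31), and the trypsin inhibitor Spink3 186 and 36.1 CPM. Amy2b, an amylase whose copies are nearly alike and may share reads, had 94.6 and 29.4 CPM at E14.5 and no read in either E12.5 epithelial library. Aqp8, a water channel known from acinar cells, had 11.6 CPM in the control against no read at all. It was 53.7-fold lower against a floor of 3 reads, with an interval from 43.2 up. Summed over the list, acinar proteases came to 13161 and 3414 CPM at E14.5 and 1571 and 1413 CPM at E12.5. The library labelled mutant thus held a larger protease sum than either E12.5 library and a smaller one than its control, which the plot of levels in the 4 epithelial libraries shows gene by gene.

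The stretches before the start sites of Rbpjl and of 3 genes for secreted enzymes are printed here because these genes carry the acinar difference and because the PTF1 complex is known to bind an E-box beside an RBPJ-type box. They come from RefSeq's promoter table (GRCm38.p6), 5′ to 3′ on the gene's strand, and stop at the first start site of either RefSeq or GENCODE; capitals mark matches on either strand to CACCTG (an E-box) or TTCCCA (an RBPJ-type box).
Rbpjl, chr2:164402944-164403140, plus strand: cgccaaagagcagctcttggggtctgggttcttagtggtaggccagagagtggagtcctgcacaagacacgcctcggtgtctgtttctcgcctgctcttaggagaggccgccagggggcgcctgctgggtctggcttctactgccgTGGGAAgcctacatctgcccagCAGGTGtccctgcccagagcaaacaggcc
Cpa1, chr6:30638968-30639217, plus strand: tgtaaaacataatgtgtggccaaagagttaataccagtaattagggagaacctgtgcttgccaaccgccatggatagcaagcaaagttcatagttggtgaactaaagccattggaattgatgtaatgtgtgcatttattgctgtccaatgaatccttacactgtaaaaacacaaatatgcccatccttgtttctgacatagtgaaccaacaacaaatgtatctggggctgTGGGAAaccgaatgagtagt
Pnliprp1, chr19:58728637-58728886, plus strand: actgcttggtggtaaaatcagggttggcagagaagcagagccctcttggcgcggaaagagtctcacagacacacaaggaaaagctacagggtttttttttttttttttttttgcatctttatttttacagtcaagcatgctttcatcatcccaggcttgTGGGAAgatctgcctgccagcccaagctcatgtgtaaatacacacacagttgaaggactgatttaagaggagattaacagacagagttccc
Cel, chr2:28563404-28563653, minus strand: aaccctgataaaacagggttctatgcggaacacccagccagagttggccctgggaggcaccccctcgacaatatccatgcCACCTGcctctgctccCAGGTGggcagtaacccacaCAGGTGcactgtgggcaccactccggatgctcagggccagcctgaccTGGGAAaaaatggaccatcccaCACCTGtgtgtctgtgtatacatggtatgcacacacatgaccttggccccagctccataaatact

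The Rbpjl stretch holds 1 match to each motif, 16 bases apart, and the Cel stretch 4 matches to CACCTG and 1 to TTCCCA. Cpa1 and Pnliprp1 hold 1 match each to TTCCCA and none to CACCTG in this window. Of 28 measured acinar genes, 21 were found in the table with 22 promoters of 250 bases before the start. CACCTG occurred in 14 of these (63.6%) and in 17.2% of all 32851 promoters of the same length. TTCCCA occurred in 11 (50%) and in 21.6% of all, and both motifs in 5 (22.7%) and in 3.91%. The 2 motifs can overlap by the letters CA that end one and begin the other. A match describes the letters alone; no binding was measured.

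**Figure D2:**
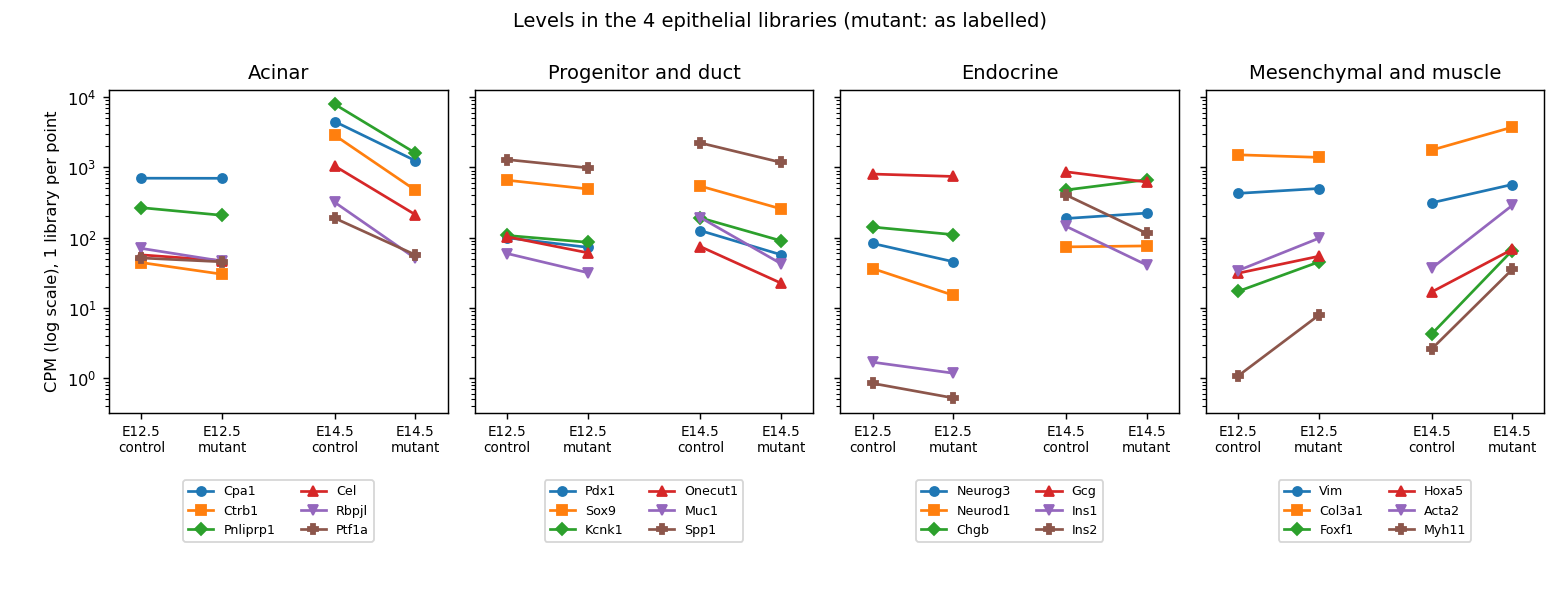
CPM on a log axis (y) in the 4 epithelial libraries (x; 1 library per point, lines join the libraries of 1 stage) for 6 genes of each of 4 groups. Acinar genes are high in the E14.5 control and lower in the library labelled mutant (Cpa1 4464 and 1239 CPM), Neurog3 and Neurod1 are nearly level at E14.5, and Foxf1 and Myh11 are higher in the library labelled mutant at both stages.

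Transcription factors of pancreatic progenitors were lower by about the amount of general epithelial genes. Of the list, 1 of the 20 measured were called higher and 11 lower, the median log2 ratio being -1.09 (-0.15 on the relative scale). Pdx1, the homeobox factor of the pancreatic field, stood at 126 and 57.2 CPM, 2.201-fold lower (2.02 to 2.395), which is 1.15-fold lower on the relative scale. Sox9, which maintains progenitors and trunk cells, stood at 540.2 and 257 CPM, 2.10-fold lower (2.02 to 2.19), with plain CPM taking it just under 2-fold. Onecut1 (Hnf6), upstream of Neurog3, had 74.5 and 22.5 CPM, 3.30-fold lower (2.91 to 3.76). The member called higher was Etv4, a target of FGF signalling, at 2.74 and 6.03 CPM. Myc stood at 326 and 121 CPM and Nkx6-2 at 12.7 and 2.73 CPM. Nkx6-1 (97.2 and 70.6 CPM), Hhex (119.7 and 78.8 CPM) and Gata6 (89.9 and 79.6 CPM) were not called, whereas its relative Gata4 was 2.77-fold lower (2.58 to 2.98). On the relative scale 2 of the 20 were called higher and 1 lower.

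Duct and trunk markers matched the general epithelial genes in their median: 1 of the 19 measured were called higher and 9 lower, the median log2 ratio being -0.96 (-0.02 on the relative scale). Spp1, osteopontin, stood at 2221 and 1175 CPM, 1.89-fold lower (1.86 to 1.93), and was not called. Muc1, an apical mucin, was the lowest with 193 and 42.7 CPM, 4.52-fold lower (4.14 to 4.95), and was also called lower on the relative scale. Kcnk1, a potassium channel (191 and 90.3 CPM), Slc4a4, a bicarbonate transporter (21.4 and 9.91 CPM), and Vtcn1 (11.4 and 2.94 CPM) were called lower. Car2, carbonic anhydrase 2, went the other way at 4.18 and 19.3 CPM, 4.62-fold higher (3.49 to 6.21). Beside these, the keratins Krt7 and Krt19, which also mark ducts, were not called, as given above.

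Endocrine transcription factors had a median near 0, unlike the hormones below. Of the endocrine transcription factors, 2 of the 25 measured were called higher and 2 lower, the median log2 ratio being 0.05 (0.99 on the relative scale), and the median moved to -0.04 with no filter on level. Neurog3, the factor that commits cells to the endocrine lineage, stood at 187 and 223 CPM, 1.19-fold higher (1.13 to 1.26). Its targets Neurod1 (73.9 and 76.3 CPM), Insm1 (73.4 and 97.2 CPM), Pax4 (33.2 and 45.8 CPM) and Rfx6 (18.8 and 29.5 CPM) were at or above the control without reaching 2-fold. Relative to the general epithelial genes Neurog3 was 2.29-fold higher and Insm1 2.54-fold higher, and 12 of the 25 were called higher on that scale, a share close to the 43.1% of all genes. The calls on the unshifted scale were Sox11 (23.8 and 54.6 CPM) and Irx2 higher, and Pdx1 and Mafa lower. Some members are not particular to epithelium. In E12.5 control mesenchyme, then epithelium, Sox11 stood at 317 and 114 CPM, Sox4 at 716 and 515 CPM and Isl1 at 146 and 81.5 CPM. In contrast, 12 of the 28 members, Pdx1 among them, had no read in that mesenchyme. How far mesenchymal RNA enters the list median was not tested. Mafa, a factor of mature beta cells, stood at 5.48 and 1.87 CPM, 2.93-fold lower (1.86 to 4.76). The library labelled mutant at E12.5 had been lower than its control for several of them: Neurog3 stood there at 82.8 and 45.5 CPM, Neurod1 at 36.4 and 15.2 CPM and Pax4 at 17.9 and 8.80 CPM.

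Hormones differed among themselves. Of the list, 1 of the 11 measured were called higher and 4 lower, the median log2 ratio being -0.55 (0.39 on the relative scale). Both insulin genes were called lower, Ins1 at 145 and 40.9 CPM, 3.55-fold lower (3.23 to 3.90), and Ins2 at 405 and 115 CPM, 3.52-fold lower (3.33 to 3.72). Iapp, which beta cells release with insulin, stood at 369 and 135 CPM, 2.74-fold lower (2.60 to 2.89), and Npy at 12.9 and 3.73 CPM. Glucagon (Gcg), of alpha cells, stood at 863 and 619 CPM, 1.40-fold lower (1.36 to 1.43), and was not called; ghrelin (Ghrl, 71.2 and 55.4 CPM), peptide YY (Pyy, 208 and 176 CPM), somatostatin (Sst, 17.5 and 10.8 CPM) and pancreatic polypeptide (Ppy, 6.10 and 4.17 CPM) were not called either. Cholecystokinin (Cck) was called higher at 19.04 and 41.0 CPM. On the relative scale the insulin genes were 1.85-fold lower and 1.83-fold lower and Gcg 1.38-fold higher. Insulin transcripts were low at E12.5, with 1.70 and 1.18 CPM for Ins1.

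Granule proteins and prohormone convertases, which all endocrine cells use, stayed closer to the control: 1 of the 24 measured were called higher and 2 lower, the median log2 ratio being -0.19 (0.75 on the relative scale). Chromogranin A (Chga) stood at 279 and 200.4 CPM and chromogranin B (Chgb) at 476 and 665 CPM; Cpe, which trims prohormones, was level at 387 and 371 CPM. The convertase Pcsk1 had 45.3 and 36.7 CPM and Pcsk2 94.5 and 48.3 CPM. Slc30a8, the zinc transporter of insulin granules, was the lowest at 8.70 and 2.30 CPM, 3.79-fold lower (2.55 to 5.77). Scg2, a secretogranin, was also called lower (52.2 and 25.1 CPM, under 2-fold with plain CPM), and Snap25, of the exocytosis machinery, was the highest at 5.48 and 12.6 CPM, 2.29-fold higher (1.75 to 3.03). Among genes of beta cell glucose sensing, 1 of the 10 measured were called higher and 4 lower, the median log2 ratio being -0.59 (0.35 on the relative scale); without members that stand in another list the median was 0.33. The member called higher, Gpr119, falls under 2-fold with DESeq2 size factors. Those called lower were Slc30a8, Mafa, the islet glucose-6-phosphatase G6pc2 (10.8 and 3.59 CPM) and Ero1lb, an oxidase of insulin folding (69.3 and 27.9 CPM). The glucose transporter Slc2a2 stood at 12.1 and 18.5 CPM.

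Signalling genes were called in both directions, and calls of higher outnumbered calls of lower in each signalling list below other than Notch, where they were equal, and Wnt receptors and antagonists. In the Notch pathway, which holds back endocrine commitment, 2 of the 24 measured were called higher and 2 lower, the median log2 ratio being -0.02 (0.92 on the relative scale), and that median turns positive with plain CPM or upper quartile scaling. Notch1 stood at 54.2 and 23.6 CPM, 2.30-fold lower (2.02 to 2.62), the target Hes1 at 242 and 135 CPM, 1.80-fold lower (1.70 to 1.90), and the ligand Dll1 at 40.6 and 23.9 CPM; Hey2, a target in vessels and muscle, stood at 2.397 and 12.6 CPM, 5.24-fold higher (3.63 to 7.77). Of the Wnt ligands, 4 of the 6 measured were called higher and 0 lower, the median log2 ratio being 1.60 (2.54 on the relative scale): Wnt5a (17.9 and 58.7 CPM), Wnt5b (13.8 and 54.7 CPM), Wnt9a and Wnt11 were called higher, and the epithelial ligand Wnt7b stood at 62.8 and 51.2 CPM. Wnt receptors and antagonists were mixed. In that list 4 of 23 were called higher, the secreted antagonists Sfrp1 (111 and 319.8 CPM) and Sfrp2 among them, and 5 lower (median 0.08, 1.02 on the relative scale), including the receptors Fzd5 and Lgr4 (59.3 and 26.4 CPM). Of Wnt target genes, 4 of the 12 measured were called higher and 1 lower, the median log2 ratio being 0.24 (1.18 on the relative scale). Apcdd1 had the largest difference at 6.64 and 37.5 CPM, 5.64-fold higher (4.53 to 7.08), while Axin2 was level at 12.1 and 12.8 CPM. The 4 called higher were also higher in E12.5 control mesenchyme than epithelium: Apcdd1 3.94-fold, Nkd1 3.38-fold, Nkd2 2.82-fold and Lef1 6.30-fold. The member called lower, Rnf43 (29.4 and 11.6 CPM), stood at 0.268 CPM in that mesenchyme and 21.2 CPM in that epithelium. Whether these calls reflect a Wnt response in epithelial cells was not tested.

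In the retinoic acid pathway, 8 of the 12 measured were called higher and 0 lower, the median log2 ratio being 1.07 (2.01 on the relative scale). The synthesis genes Rdh10 (35.1 and 106 CPM), Aldh1a1 (11.8 and 35.6 CPM) and Aldh1a3 (0.822 and 7.61 CPM) and the binding protein Crabp2 (2.74 and 16.0 CPM) were called higher. Fgf10, the mesenchymal ligand that sustains pancreatic progenitors, had 0.274 and 8.69 CPM, 31.7-fold higher (12.1 to 118), from few reads in the control. Its epithelial receptor Fgfr2 stood at 94.1 and 64.0 CPM. In the FGF list 6 of 17 were called higher and 2 lower; the median of 0.64 (1.59 on the relative scale) turns to -0.21 among members at 20 CPM or more. For the BMP, TGF-beta and activin pathway, 7 of the 29 measured were called higher and 0 lower, the median log2 ratio being 0.42 (1.36 on the relative scale); Tgfbi, an extracellular protein induced by TGF-beta, stood at 77.7 and 456 CPM, 5.86-fold higher (5.50 to 6.25). In the Hedgehog pathway, 4 of the 9 measured were called higher and 1 lower, the median log2 ratio being 0.73 (1.67 on the relative scale). The co-receptor Gas1 (219 and 532 CPM) and the effector Gli3 (5.07 and 24.2 CPM) were called higher and the receptor and target Ptch1 lower (8.84 and 4.31 CPM, under 2-fold with plain CPM or upper quartile scaling). In the insulin-like growth factor system, 3 of the 14 measured were called higher and 0 lower, the median log2 ratio being 0.64 (1.58 on the relative scale): Igfbp4 stood at 556 and 1433 CPM, and Kazald1, a secreted protein related to the IGF binding proteins, at 7.19 and 27.2 CPM, 3.78-fold higher (3.04 to 4.74). Kazald1 stood at 7.82 and 26.9 CPM in E12.5 epithelium and 66.9 and 347 CPM in E12.5 mesenchyme. Among guidance genes, 8 of the 34 measured were called higher and 2 lower, the median log2 ratio being 0.43 (1.38 on the relative scale), with the Eph receptor Epha4 (10.3 and 56.9 CPM) and the netrin receptor Unc5c (10.5 and 47.2 CPM) higher and the basement membrane netrin Ntn4 (37.9 and 9.84 CPM) lower.

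Lists of mesenchymal transcription factors, matrix and smooth muscle had positive medians under the main scaling. All 17 measured Hox genes were called higher, with a median log2 ratio of 2.01 (2.95 on the relative scale). Hoxa5 stood at 16.9 and 67.9 CPM, 4.03-fold higher (3.50 to 4.65), and Hoxb2 at 13.6 and 50.7 CPM, 3.74-fold higher (3.19 to 4.40). Hoxa10, a more posterior gene, had no read in the control against 7.40 CPM, with no read in either E12.5 mesenchyme library. The other 13 Hox genes of the list did not reach 5 CPM in either library. Of splanchnic mesenchyme transcription factors, 20 of the 23 measured were called higher and 1 lower, the median log2 ratio being 2.28 (3.22 on the relative scale); without the members that had no read in 1 library the median was 1.89. Foxf1, a forkhead factor of gut mesenchyme, stood at 4.25 and 65.6 CPM, 15.4-fold higher (11.9 to 20.3). Barx1, of stomach and spleen mesenchyme, stood at 67.1 and 179 CPM, 2.66-fold higher (2.47 to 2.87), and Tcf21 at 26.4 and 134 CPM, 5.08-fold higher (4.55 to 5.69). Pitx1, a homeobox gene best known from hindlimb and pituitary, had no read in the control and 21.5 CPM. It was 105-fold higher against a floor of 3 reads, with an interval from 84.7 up. Pitx1 stood at 0.612 and 5.78 CPM in E12.5 epithelium, 9.44-fold higher in the library labelled mutant there too. In E12.5 mesenchyme it stood at 0.335 and 1.03 CPM.

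General mesenchymal genes were higher by a smaller factor: 21 of the 30 measured were called higher and 0 lower, the median log2 ratio being 1.34 (2.29 on the relative scale). Vim, vimentin, stood at 313 and 569 CPM, 1.82-fold higher (1.75 to 1.89), and Col3a1, a fibrillar collagen, at 1757 and 3717 CPM, 2.12-fold higher (2.08 to 2.15). The transcription factor Snai2 was the furthest at 29.7 and 150.2 CPM, 5.07-fold higher (4.57 to 5.63). Of collagens, 13 of the 30 measured were called higher and 0 lower, the median log2 ratio being 0.79 (1.73 on the relative scale); of proteoglycans and elastic fibre proteins, 14 of the 34 measured were called higher and 2 lower, the median log2 ratio being 0.96 (1.90 on the relative scale). Col6a1 stood at 173 and 459.6 CPM and Lum, lumican, at 84.3 and 287 CPM, both also above the E12.5 mesenchyme libraries (165 and 90.3 CPM and 13.4 and 10.2 CPM). Tnc, tenascin C, had no read in the E14.5 control against 11.3 CPM, although both E12.5 epithelial libraries held it (26 and 50.7 CPM). Laminins and integrins went both ways. Integrin beta 4 (Itgb4, 29.5 and 5.03 CPM) and alpha 6 (Itga6, 264 and 74.97 CPM), which pair in hemidesmosomes, were called lower, while integrin alpha 5 (Itga5, 34.0 and 89.0 CPM) and nidogen 1 (Nid1, 74.2 and 158 CPM) were called higher. The median of that list (1.09 on the relative scale) changes sign between scalings, from 0.15 to -0.09 with DESeq2 size factors.

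Smooth muscle genes were among the most different. Of the smooth muscle and pericyte markers, 13 of the 18 measured were called higher and 0 lower, the median log2 ratio being 1.73 (2.67 on the relative scale). Acta2, smooth muscle actin, stood at 36.6 and 287 CPM, 7.83-fold higher (7.15 to 8.58), Actg2 at 3.36 and 58.2 CPM, 17.3-fold higher (13.0 to 23.6), and Myh11, smooth muscle myosin, at 2.60 and 35.3 CPM, 13.5-fold higher (9.73 to 19.4). Cnn1, calponin, stood at 0.548 and 27.7 CPM, 50.6-fold higher (25.4 to 118). All 4 were low in E12.5 mesenchyme, at 26.8 and 22.96 CPM for Acta2 and 0.402 and 0.450 CPM for Myh11. In E12.5 epithelium they were already higher in the library labelled mutant, with 34.1 and 97.8 CPM for Acta2 and 2.97 and 25.0 CPM for Actg2. Rgs5, a pericyte gene, stood at 5.0 and 41.9 CPM, 8.39-fold higher (6.57 to 10.9). Of skeletal and cardiac muscle markers, 6 of the 7 measured were called higher and 1 lower, the median log2 ratio being 2.05 (2.99 on the relative scale). The other 19 of the 26 members were not measured, and with no filter on level the median was 1.10. The skeletal muscle factors Myod1 and Myog stood at 0.548 and 7.18 CPM and 1.16 and 5.46 CPM. Both reached 5 CPM only in the library labelled mutant, so neither could have been called lower.

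**Figure D3:**
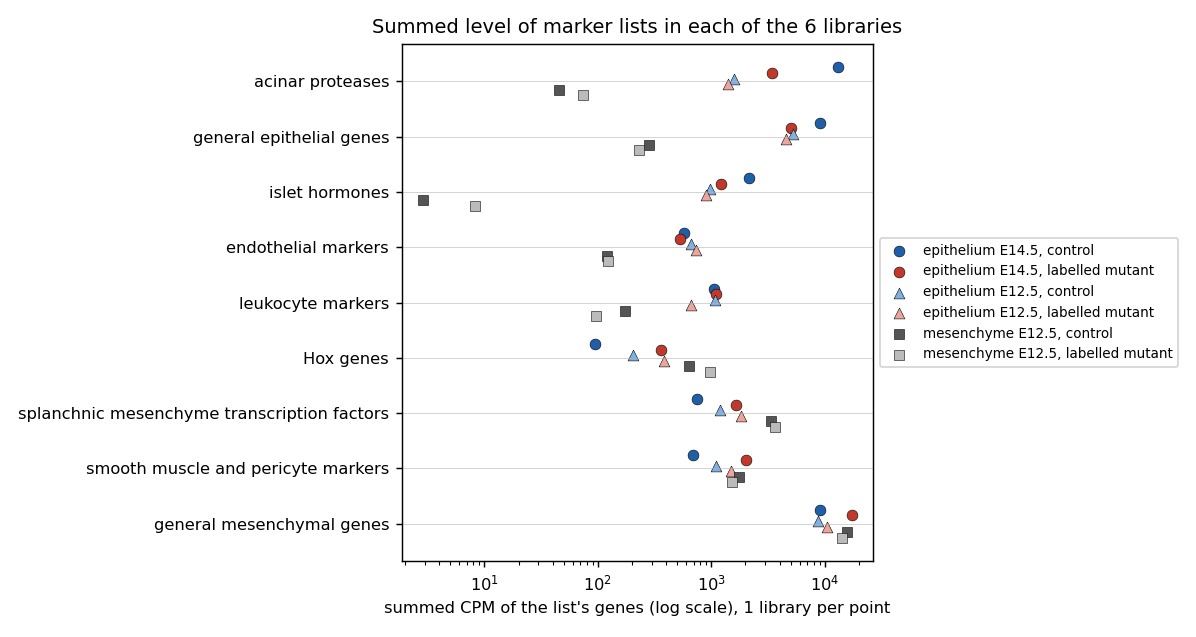
Summed CPM (log x axis) of 9 marker lists (y axis) in the 6 libraries, 1 library per point; circles are E14.5 epithelium, triangles E12.5 epithelium and squares E12.5 mesenchyme. In E14.5 epithelium the library labelled mutant holds less of the acinar and general epithelial lists and more of the Hox, splanchnic, smooth muscle and general mesenchymal lists than its control, while the endothelial (572 and 531 CPM) and leukocyte (1056 and 1101 CPM) sums are close.

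Neural crest, glial and neuronal genes were higher too: 17 of the 23 measured were called higher and 1 lower, the median log2 ratio being 1.42 (2.37 on the relative scale). Sox10, of glia and neural crest, stood at 9.73 and 26.7 CPM, 2.75-fold higher (2.26 to 3.36). The neuronal filament gene Nefl had 16.6 and 73.0 CPM and Gap43, of growing axons, 33.7 and 151 CPM. Sox10 had no read in either E12.5 mesenchyme library and 18.9 and 9.92 CPM in E12.5 epithelium. Among endothelial genes 5 of the 23 measured were called higher and 2 lower, the median log2 ratio being 0.22 (1.16 on the relative scale); Pecam1 stood at 28.8 and 31.5 CPM, and Cdh5 at 9.86 and 11.8 CPM, while Kdr was called lower at 33.7 and 14.9 CPM. That median turns to -0.31 among members at 20 CPM or more. Of mesothelial markers 4 of 12 were called higher, with a median of 0.80 (1.74 on the relative scale), Upk1b standing at 13.2 and 48.9 CPM and Wt1 at 17.4 and 50.6 CPM.

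Among leukocyte genes those of neutrophil granules stood apart. Of the list, 6 of the 33 measured were called higher and 5 lower, the median log2 ratio being 0.38 (1.33 on the relative scale). The 5 called lower all encode granule or cytosolic proteins of neutrophils, although Prtn3, a granule protease of that lineage, was called higher at 1.85 and 7.68 CPM. Those 5 reached 5 CPM only in the control and Prtn3 only in the library labelled mutant, so each could be called only in that direction. Ltf, lactoferrin, had 40.9 CPM in the control against no read, 189.8-fold lower against a floor of 3 reads, with an interval from 154 up. Ngp stood at 64.8 and 1.15 CPM, 56.4-fold lower (34.5 to 99.1), Camp at 14.4 and 0.144 CPM, S100a9 at 36.4 and 1.01 CPM and S100a8 at 28.9 and 3.02 CPM. Lcn2, which neutrophils also store, had 13.3 and 0.144 CPM. At E12.5 the same genes were present in both epithelial libraries, with 71.5 and 25.9 CPM for Ltf and 71.3 and 32.1 CPM for Ngp. The macrophage receptor Csf1r (42.5 and 77.9 CPM) and complement gene C1qb (54.1 and 68.5 CPM) were not called, and the mast cell proteases Cma1 (24.4 and 57.4 CPM) and Cpa3 (50.1 and 97.5 CPM) were higher in the library labelled mutant, Cma1 past 2-fold. The embryonic globins Hbb-y and Hba-x, of red cells, stood at 3.56 and 23.1 CPM and 0.822 and 5.24 CPM. Both reached 5 CPM only in the library labelled mutant. They were the 2 called higher of 4 measured erythroid markers, with 0 called lower. The median log2 ratio of that list, 1.74 (2.68 on the relative scale), fell to 0.09 with a filter at 1 CPM. Summed over all its members, the list was lower in the library labelled mutant, at 154 and 115 CPM.

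The median of secretory pathway genes was below 0 but above that of general epithelial genes. Of 35 genes of the unfolded protein response and secretory pathway, 8 were called lower and 1 higher, and the median log2 ratio was -0.69. On the relative scale 0 were called lower and 1 higher, with a median of 0.25. Edem1, of endoplasmic reticulum quality control, stood at 262 and 77.1 CPM, 3.397-fold lower (3.17 to 3.64), and Sdf2l1 at 258 and 83.0 CPM, 3.10-fold lower (2.91 to 3.32). Xbp1, the transcription factor of secretory cells, had 964 and 497 CPM and the chaperone Hspa5 2380.2 and 1504 CPM, while Ddit3, a factor of prolonged stress, was called higher at 6.37 and 13.8 CPM. In the hypoxia and glycolysis list, 1 of the 24 measured were called higher and 2 lower, the median log2 ratio being -0.25 (0.69 on the relative scale). Car9, a carbonic anhydrase induced by low oxygen, stood apart at 152 and 22.7 CPM, 6.68-fold lower (5.93 to 7.54), with Pdk1 at 153 and 58.5 CPM; Slc2a3, a glucose transporter, was called higher (9.80 and 24.1 CPM). Vegfa stood at 136 and 88.9 CPM and Ldha at 2152 and 1283 CPM.

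Among the immediate early genes, known for a response within minutes, 6 of 27 were called lower and 2 higher, and the median was -0.32 (0.62 on the relative scale). On the relative scale 4 were called lower and 8 higher. Nr4a1 stood at 165 and 20.6 CPM, 8.02-fold lower (7.09 to 9.10), Egr2 at 82.3 and 13.1 CPM, Atf3 at 47.9 and 9.84 CPM and Fosb at 74.2 and 18.8 CPM, whereas Fos was level at 587 and 588 CPM and Jun stood at 722 and 565 CPM. Of cell cycle genes, 1 of the 36 measured were called higher and 1 lower, the median log2 ratio being -0.31 (0.63 on the relative scale). Mki67, a proliferation marker, stood at 227 and 129 CPM and Top2a at 396 and 257 CPM, both under 2-fold. Cdkn1c (p57), an inhibitor of the cycle that is imprinted, stood at 1298 and 3652 CPM, 2.81-fold higher (2.77 to 2.86), beside 3583 and 3342 CPM in E12.5 mesenchyme.

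The differences were next set against the control fractions of E12.5, which share no library with the E14.5 pair. Of 1171 genes called higher at E14.5, 436 (37.2%) were at least 2-fold higher in E12.5 control mesenchyme than in epithelium, against 5.65% of all genes measured at E14.5. Over the genes measured in that fraction comparison itself the shares were 7.0% at 2-fold higher, 13.6% at 2-fold lower and 1.38% at 4-fold higher. Of 777 called lower, 390 (50.2%) were at least 2-fold lower in that mesenchyme, against 12.5% of all. In the library labelled mutant 479 of the 1171 higher genes (40.9%) stood above both E12.5 mesenchyme libraries, as Acta2, Lum and Pitx1 did, a share close to the 43.1% of all measured genes. No E14.5 mesenchyme was analysed here, so how much of the difference a change in the mix of cells gives was not tested.

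**Figure D4:**
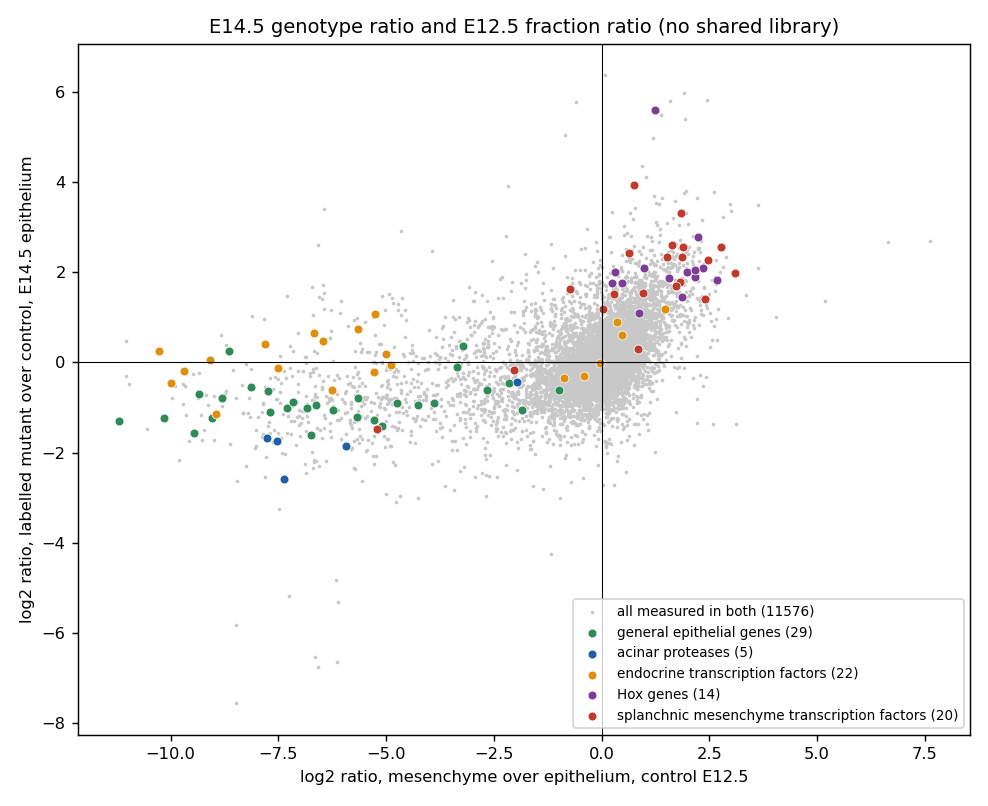
Each point is 1 of 11576 genes measured in both comparisons: x axis, log2 ratio of mesenchyme over epithelium in control E12.5 buds; y axis, log2 ratio of the library labelled mutant over control in E14.5 epithelium. Hox and splanchnic genes lie mostly at the upper right and general epithelial genes mostly at the lower left. Acinar proteases other than Ctsc lie below these, and endocrine transcription factors around 0 on the y axis.

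Genes scarce in E12.5 mesenchyme were taken separately. There were 621 measured genes under 1 CPM in both E12.5 mesenchyme libraries. Of these 86 (13.8%) were called higher and 234 (37.7%) lower, against 9.64% and 6.4% of all measured genes, and the median log2 ratio was -0.71. On the relative scale 176 of the 621 were called higher and 97 lower, against 43.1% and 1.26% of all measured genes. The share called higher was thus below that of all genes and the share called lower above it. The lowest on that scale were the neutrophil genes and trypsinogens given above, with Lcn2, Aqp8 and BC100530 (11.4 and 0.287 CPM). Among the highest were Cnn1 and Myh11 of smooth muscle, the neural genes Tlx2 (3.22 and 19.7 CPM), Sox10, Stmn3 and Vip (3.97 and 12.6 CPM), the tight junction gene Cldn15 (1.58 and 11.4 CPM), Aldh1a1 and Serpina1e (9.93 and 26.4 CPM). At the other end, 108 measured genes were at least 4-fold higher in control E12.5 mesenchyme than epithelium. Of them 83 (76.9%) were called higher at E14.5 and 3 (2.78%) lower, and the median log2 ratio was 1.65.

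Finally, the genotype ratios at E12.5 and E14.5, which come from separate libraries, are set side by side. Called genes were fewer at E12.5, 1.79% higher and 3.21% lower of those measured there. For the 13 Hox genes measured at both stages the medians were 0.97 at E12.5 and 1.90 at E14.5. For 21 splanchnic factors they were 0.59 and 1.99, and for 5 acinar factors -0.51 and -1.73. Endocrine factors had -0.42 at E12.5 and 0.12 at E14.5 over 22 genes. Leukocyte genes had -0.64 and 0.28. Whether any of these stage differences exceeds the spread between pools could not be tested with 1 library a group.

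**Figure D5:**
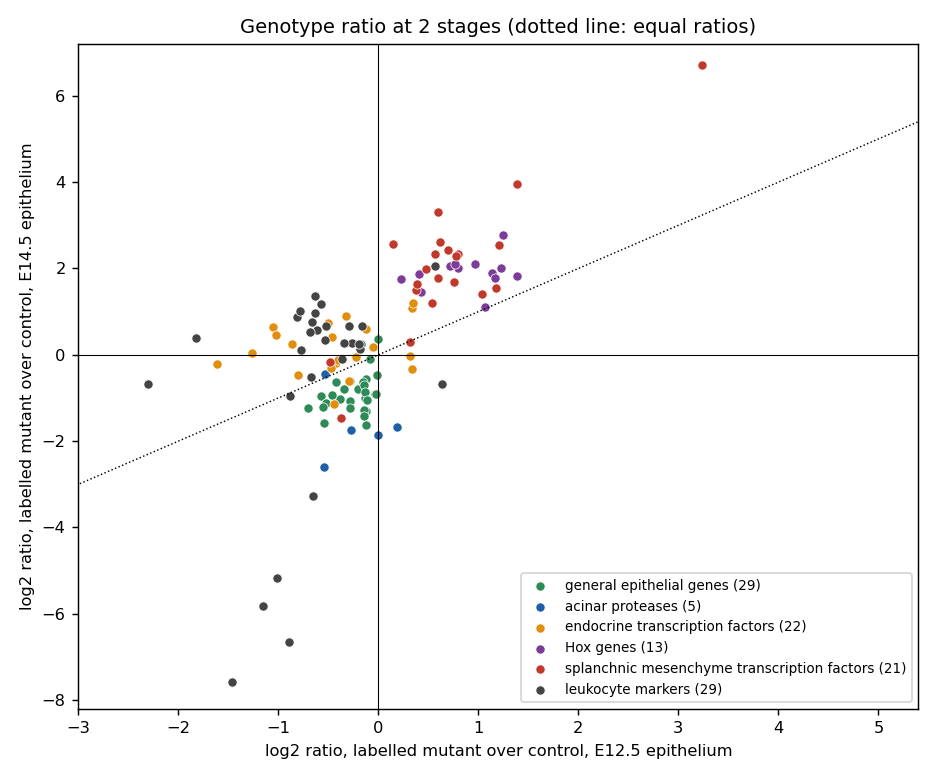
Log2 genotype ratio in E12.5 epithelium (x axis) against that in E14.5 epithelium (y axis) for genes of 6 lists measured at both stages; the dotted line marks equal ratios and numbers in brackets are genes plotted. Hox and splanchnic genes lie above 0 on both axes apart from Gata4 and Gata6, general epithelial genes are near 0 at E12.5 and below it at E14.5, and 5 neutrophil genes of the leukocyte list are far below the line.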

How the data were processed

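Raw counts per gene symbol, as whole numbers, were deposited by the authors in a file for each library, and the last 5 lines, which name no gene, were dropped (reads on no feature were 4.69% of the control total and 5.40% of the library labelled mutant). Per the submitters' processing notes the build was mm10, with Cufflinks 2.2.1 and Cuffdiff 2.2.1; the sources used here give neither the counting tool nor its use of strand. The deposited files are named as deduplicated counts.

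Library sizes were scaled with TMM over all 6 libraries (edgeR 4.0.16; factors 0.941 to 1.047; the 6 libraries held 14032569 to 20276045 counts). Ratios carry exact 95% binomial (Clopper-Pearson) intervals, conditional on both counts, for counting error only. A library with no read is set to a floor of 3 counts per library. Python 3.11.15, numpy 2.4.6, pandas 2.3.3, scipy 1.17.1, matplotlib 3.10.9, R 4.3.3 and DESeq2 1.42.0 (size factors as an alternative) were used. The calculation was tested on simulated counts. Other scalings, filters, thresholds and reference genes were tried, with their effect given in the closing section; no test between groups was possible with 1 library each. Since strand use is unknown, overlapping genes cannot be separated.

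The members and the 45 gene lists were chosen with earlier results of these data known. Genes were named by rule: Pbx2 and other TALE genes, Nkx2-5, a fixed group of pancreatic genes, the 12 higher and 12 lower with the largest fold at 10 CPM or more, the 10 higher and 10 lower on the relative scale among genes near absent from E12.5 mesenchyme, and up to 5 of the most abundant and 5 of the most different members of each list; those printed were selected from it, and a few others added, after their values were seen. Not reported here are a further allele of the labelled mutant genotype and several of the genes this rule picks. RefSeq promoters were used, with gene positions from GENCODE M21.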

Additional observations from a re-analysis of the deposited data

Results flagged for a closer look

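Each of the following genes had a genotype ratio called in one direction in E14.5 epithelium and in the other at E12.5. The difference between stages was not tested, since each group is 1 library, and each group holds 1 sample, so samples far from others of their group could not be looked for. Eno1b had a log2 ratio of -4.25 at E14.5 (86.2 and 4.52 CPM) and 2.42 at E12.5 (19.8 and 106 CPM); it may share reads with the near-identical enolase Eno1. G6pc2, the islet glucose-6-phosphatase, had -1.59 at E14.5 (10.8 and 3.59 CPM) and 1.41 at E12.5 (2.03 and 5.39 CPM). The liver protease inhibitor Serpina1c had 1.02 (31.1 and 63.2 CPM) and -4.00 (55.5 and 3.48 CPM), and Serpina1e had 1.41 (9.93 and 26.4 CPM) and -7.93 (48.1 and 0.197 CPM). The Serpina1 copies are nearly alike and their single values are uncertain.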

How the results depend on the processing

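Counts of called genes stayed within 1.5 times under every other scaling (DESeq2 size factors, plain CPM, TMM over the 2 libraries, upper quartile, 50 most abundant genes left out, thinning), with 57.3% to 66.2% of called genes higher. They moved with the filter and the threshold. With filters at 1 CPM, at 20 CPM and none, genes higher came to 1948, 554 and 2299, genes lower to 1272, 445 and 1518, and genes lower on the relative scale to 420, 62 and 477; near-absent genes called lower came to 550, 116 and 759 and higher to 446, 10 and 727. Mesenchyme-enriched genes called higher came to 38 at 20 CPM. With thresholds of 1.5-fold and 4-fold, higher came to 2112 and 255, lower to 1804 and 141, relatively higher to 9085 and 1066 and relatively lower to 297 and 49; at 4-fold, near-absent genes came to 89 lower and 28 higher and enriched genes to 41. Under 0.2 CPM in mesenchyme, 137 genes were lower and 40 higher; at 8-fold enrichment 10 and at 2-fold, chosen after seeing the data, 436 were higher. These shifts follow from what each setting admits. The main values were 1171 higher, 777 lower, 5238 and 153 on the relative scale, 234 and 86 near absent, and 83 enriched. The reference median was -1.01 without keratins and -0.77 from genes 8-fold lower in mesenchyme. No named gene reversed, and 336 of 352 kept their call under every scaling and filter run on them. Calls of Epcam, Sox9, Scg2, Dll4, Ptch1, Cyr61, Gpr119, Cdon, Col1a2, Serpina1c and Ddx3y were lost, and those of Bmp7, Spry1, Meis1, Dcn and Cpa3 gained, under at least 1 scaling. Some list medians changed sign under at least 1 setting (Notch, laminins, FGF, endothelial, glucose sensing, endocrine factors, hepatocyte, cartilage, kidney, interferon). No paired analysis was possible because each group holds 1 library and the labels give no replicate numbers; no library could be left out for the same reason.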

Other observations

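Camkv, a kinase-like protein of neurons, had no read in the E14.5 control against 12.9 CPM in the library labelled mutant, although both E12.5 epithelial libraries held it (8.29 and 19.3 CPM). In all, 16 of the genes called higher had no read in the control and 5 of those called lower had none in the library labelled mutant. Both pools held RNA of male and female embryos: Xist stood at 35.2 and 37.0 CPM and the Y-linked genes Ddx3y at 26.4 and 53.7 CPM and Eif2s3y at 38.2 and 50.8 CPM. Ddx3y passed 2-fold under the main scaling but not with DESeq2 size factors. Of interferon and MHC class I genes 3 of 20 were called higher, among them Ifitm1 (30.3 and 79.6 CPM), and 1 lower, H2-K1.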
